A study of Mus musculus with 74 samples.

Results

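Translation initiation and elongation factors were followed over a day in mouse brown fat (BAT) and in white fat of the inguinal depot (WAT). The members were the protein-coding genes whose symbol begins with Eif or Eef followed by a digit. The rule found 79 symbols among the 55487 genes of the RNA table. It left out 12 of them, of which 10 were pseudogenes, 1 was a long noncoding RNA (Eif2c5) and 1 was the Y-linked Eif2s3y, so 67 members remained.

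Ribosome-bound RNA and sorted nuclei came from mice of the strain Adiponectin-Cre:NuTRAP, in which the adipocyte promoter of adiponectin drives the Cre that switches on tagged ribosomes and tagged nuclear envelopes. Both depots and all times shared this genotype. Libraries were made at Zeitgeber times (ZT, hours after lights on) ZT1, ZT5, ZT9, ZT13, ZT17 and ZT21, with 3 RNA libraries for each depot and time except BAT at ZT17, which had 2, and with 3 ATAC libraries for each. BMAL1 ChIP-seq used 2 libraries of inguinal WAT from C57BL6J mice at ZT4, labelled as white adipocytes and with no NuTRAP genotype. Sex, age, feeding and light schedule are not given in the sources used here. Lights off at ZT12 was taken by convention. Nothing in the labels says that replicates came from separate animals, so every p-value measures the spread between libraries, which may be technical.

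Initiation factors bring the small ribosomal subunit to the start codon of an mRNA. The eIF4 proteins bind the cap and unwind the leader, eIF2 delivers the initiator tRNA and is recharged by eIF2B, eIF3 is the large scaffold, and eIF1, eIF1A, eIF5 and eIF5B choose the start codon and join the subunits. Elongation then runs on eEF1, which delivers aminoacyl-tRNA, and eEF2, which moves the ribosome along. Nutrient and stress signals act on a few of these steps: 4E-BP proteins (Eif4ebp genes) hold back eIF4E, eIF2 kinases (Eif2ak genes) phosphorylate eIF2, and eEF2 kinase (Eef2k) slows eEF2. BMAL1 is a core activator of the circadian clock that binds with CLOCK to E-box sequences, of which CACGTG is the canonical form.

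BAT libraries held 4980147 to 46274438 RNA counts and 3959384 to 12811242 ATAC tags inside peaks. WAT libraries were shallower, with 1301522 to 6481154 RNA counts and 1623006 to 5294923 ATAC tags. The labelled depots matched their markers: the summed level of 5 brown adipocyte markers was 6738 to 15898 CPM (counts scaled to library size) in BAT and 80.2 to 1070.0 in WAT. Summed adipocyte markers (6 genes) were 29761 to 69293 CPM in BAT and varied more in WAT, from 7811 to 76016. B and T cell markers were nearly absent from BAT (0 to 0.490 CPM) and stood at 21.7 to 193 CPM in WAT. In 3 WAT libraries (ZT5 replicate 3, ZT9 replicate 3 and ZT17 replicate 2), 53.0% to 66.0% of counts lay in ribosomal RNA loci, against 5.26% to 30.5% in the other WAT libraries and 0.813% to 4.64% in BAT.

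The strongest BMAL1 peaks at members lay at the elongation brake Eef2k, at Eif5a2 and at 2 core genes of the cap complex. The deposited BMAL1 set of 10368 peaks, pooled over the ChIP libraries by the authors, had 49 peaks within 10000 bp of the start of 43 members, and 44 of these lay within 1000 bp. The strongest by the authors' score was at Eef2k, which encodes the kinase that inhibits eEF2 (score 28.4, 16 bp before the start, rank 86 of all peaks). Next came Eif5a2, the second isoform of the hypusine-bearing factor eIF5A (21.7, 120 bp before), Eif4a1, the RNA helicase of the cap complex (19.9, 171 bp before), and Eif4g1, its scaffold (19.3, 47 bp after). Among peaks within 1000 bp of a start, Eif5 (14.2), Eif4h (11.6), Eif4e, the cap-binding protein itself (11), and Eif4e2 (10.6) followed. Farther out, Eif3a had a peak of score 12.2, 4839 bp before its start, and Eef2k and Eif4a1 each had a second peak of score 11.6. The median score was 7.87 over the peaks at members and 6.16 over all peaks. The peaks at members all lie within 10000 bp of a start and the full set does not, so these medians are not a matched comparison.

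Of the 63 members tested in WAT RNA, 43 (68.3%) had a BMAL1 peak within 10000 bp, beside 45.3% of all 12703 genes tested. Among genes that also had an ATAC peak within 1000 bp of their start in WAT, the shares were 76.4% of 55 members and 62.4% of 8193 genes. With only the BMAL1 peaks at or above the median score, 31 of 63 members (49.2%) and 28.4% of all genes had one. Among genes with such an ATAC peak, these shares were 54.5% of 55 members and 40.5% of 8193 genes. These shares are descriptions with no test.

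The canonical E-box CACGTG, which reads the same on both strands, was looked for in RefSeq promoter windows (build GRCm38.p6, 250 bases before to 50 after the start), available for 51 members. It was present in 13 of the 51 (25.5%), beside 8.09% of all 27025 genes with a window. Unlike the BMAL1 shares, this comparison was not limited to genes tested in WAT RNA or to genes with an ATAC peak. The 4 members with the highest BMAL1 scores all carried the E-box, and at Eif5a2 and Eif4g1 it occurred more than once. The stretches that hold it are shown for these 4 and for Eef2, the substrate of Eef2k, from the 5′ end on the gene's strand and ending at or before the start, with the E-box in capitals.
Eef2k, chr7:120842750-120842830, plus strand: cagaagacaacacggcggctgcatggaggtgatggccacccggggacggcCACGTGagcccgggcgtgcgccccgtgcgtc
Eif5a2, chr3:28781085-28781190, plus strand: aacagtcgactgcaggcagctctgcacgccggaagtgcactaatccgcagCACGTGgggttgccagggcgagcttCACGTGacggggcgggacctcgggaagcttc
Eif4a1, chr11:69672557-69672662, minus strand: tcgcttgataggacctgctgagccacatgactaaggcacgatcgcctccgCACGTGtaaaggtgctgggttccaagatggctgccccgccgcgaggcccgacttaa
Eif4g1, chr16:20672623-20672726, plus strand: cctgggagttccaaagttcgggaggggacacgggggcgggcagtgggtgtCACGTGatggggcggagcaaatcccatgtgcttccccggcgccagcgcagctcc
Eef2, chr10:81176538-81176630, plus strand: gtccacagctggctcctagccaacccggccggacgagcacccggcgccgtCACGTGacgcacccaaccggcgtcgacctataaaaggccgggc

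In each of these 5 promoters the E-box lay inside a BMAL1 peak. It began 31 bases before the start of Eef2k, 142 and 117 bases before that of Eif5a2, 189 before that of Eif4a1, 54 before that of Eif4g1 and 43 before that of Eef2. A match is a description of the letters and does not show binding to them. The other 8 members with the sequence were Eef1akmt4, Eif1b, Eif3a, Eif3f, Eif3k, Eif4e, Eif4h and Eif5a, and no E-box of Eif3k or Eif5a lay inside a BMAL1 peak.

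Accessibility changed over the day at some promoters of the factors in BAT, and those that passed the test were most open in the light phase. Curves with a period of 24 h (cosine plus sine) were fitted to the ATAC tags of each peak with edgeR's quasi-likelihood test, called at a Benjamini-Hochberg adjusted p under 0.05 over all peaks of the depot, and each curve yields the time of its maximum and the log2 difference between peak and trough. In BAT, 17 of 65 promoter peaks (26.2%, within 1000 bp of the start of 55 members) were called, beside 13.5% of all 12542 promoter peaks and 18.9% of all 42572 peaks. All 17 were most open in the light phase, between ZT1.9 and ZT9.7. A light-phase peak was also the rule among all promoter peaks, of which 11.6% were called with a light-phase peak and 1.91% with a dark-phase peak. Member promoters with a fitted dark-phase peak, such as that of Eif3e (ZT20.7), did not pass. The changes at the members were small, with called differences of 0.16 to 0.86.

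The largest called difference in BAT was at a peak 880 bp downstream of the start of Eif1a, a scanning factor. The libraries held 7.36, 7.43 and 8.27 CPM at ZT1, 11.4, 20.2 and 15.8 at ZT5, 9.57, 16.4 and 10.4 at ZT9, 14.2, 11.2 and 14 at ZT13, 10.7, 14 and 10.6 at ZT17, 6.47, 6.65 and 9.13 at ZT21 for this peak. The libraries of ZT1 and ZT21 were lowest, and the difference was 0.86 ± 0.24 (SE, n = 18 libraries, edgeR adjusted p = 0.0393). The stronger Eif1a peak 56 bp before the start (mean 49.7 CPM) did not pass (0.18 ± 0.07, edgeR adjusted p = 0.14). At the start of Eif4ebp1, which encodes 4E-BP1, the mTOR-regulated brake on eIF4E, the libraries held 52.3, 49.5 and 40.9 CPM at ZT1, 55.9, 67.9 and 47.6 at ZT5, 57.1, 44.7 and 43.2 at ZT9, 33.8, 38.1 and 32.3 at ZT13, 44.6, 35.7 and 41 at ZT17, 57.6, 46.4 and 43.4 at ZT21. All 3 libraries of ZT5 lay above all 3 of ZT13, and the fit peaked at ZT3.2 with a difference of 0.53 ± 0.13 (n = 18, edgeR adjusted p = 0.0209). Other Eif4ebp1 promoter peaks did not pass in BAT. They lay 767 bp before the start (1.04 ± 0.34, edgeR adjusted p = 0.0781) and 957 bp after it (0.19 ± 0.10, edgeR adjusted p = 0.296).

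Eif4g3, a second eIF4G scaffold, had 32.5, 34.1 and 35.1 CPM at ZT1, 35, 40.9 and 31.6 at ZT5, 38.9, 32.7 and 37.8 at ZT9, 33.4, 35.4 and 26.3 at ZT13, 30.1, 29.1 and 29.3 at ZT17, 23.1, 24.4 and 23.9 at ZT21. Its 3 ZT21 libraries were below all the others and the fitted difference was 0.50 ± 0.10 (n = 18, edgeR adjusted p = 0.00693). Eif5, the GTPase activator of eIF2, had 40.4, 40.8 and 37.6 CPM at ZT1, 43.9, 40.9 and 38.1 at ZT5, 43.9, 40.2 and 38.8 at ZT9, 41.2, 39.9 and 38.3 at ZT13, 33.8, 29.3 and 31.2 at ZT17, 27, 28.3 and 37.3 at ZT21 at a peak 623 bp inside the gene, with a difference of 0.45 ± 0.09 (n = 18, edgeR adjusted p = 0.00518). Every library of ZT17 and ZT21 was below every library of the earlier times.

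At Eif5a2, whose E-boxes are shown above, the libraries held 30.7, 34.5 and 36.7 CPM at ZT1, 35.6, 37 and 32.2 at ZT5, 37.4, 38.5 and 34.9 at ZT9, 30.3, 30 and 32.7 at ZT13, 29.3, 25.4 and 27.7 at ZT17, 28, 29.9 and 27.4 at ZT21. The ZT17 and ZT21 libraries were all below those of ZT1, ZT5 and ZT9, and the difference was 0.43 ± 0.07 with a peak at ZT6.3 (n = 18, edgeR adjusted p = 0.00194). Eif1, which keeps the ribosome from settling on poor start codons, had 50.5, 51.1 and 48.8 CPM at ZT1, 47.6, 50 and 53 at ZT5, 49.6, 49.4 and 52.7 at ZT9, 38.1, 45.3 and 43 at ZT13, 41.4, 41.7 and 37.3 at ZT17, 41.3, 42 and 47.4 at ZT21 at a peak 490 bp downstream of its start. There the light-phase libraries all exceeded the dark-phase ones, and the difference was 0.38 ± 0.06 (n = 18, edgeR adjusted p = 0.00146). The other called peaks lay at Eif4a3, Eif4e3, Eif2ak2, Eef1d, Eif2b1, Eif2b2, Eef2kmt, Eef1g and Eif4g1 and at second peaks of Eif1 and Eif5.

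WAT had fewer called promoters, with 6 of 64 peaks (9.38%, 55 members) beside 6.32% of 10767 promoter peaks (4.25% light-phase, 2.07% dark-phase) and 15.8% of all 25050 peaks. Of the 6, 4 had a light-phase and 2 a dark-phase peak, and the 2 at Eef2k fell close to ZT12. At the Eef2k start itself, under the BMAL1 peak, the libraries held 40.2, 39 and 29.2 CPM at ZT1, 40.4, 43 and 40.7 at ZT5, 50, 54 and 55.6 at ZT9, 54.1, 56.4 and 45.2 at ZT13, 47.5, 45 and 36.5 at ZT17, 36.6, 36.9 and 40.8 at ZT21. The ZT9 libraries were above all those of ZT1, ZT5 and ZT21, and the fit peaked at ZT11.3 with a difference of 0.59 ± 0.10 (n = 18, edgeR adjusted p = 0.000827). A second Eef2k peak 965 bp downstream of another start had 14.1, 10.8 and 14.4 CPM at ZT1, 13.6, 11.3 and 24.1 at ZT5, 21.1, 14.8 and 25.3 at ZT9, 26.6, 21.9 and 26.5 at ZT13, 17.7, 18.2 and 21.6 at ZT17, 12.7, 12 and 14.8 at ZT21, with a difference of 0.93 ± 0.19 at ZT12.3 (n = 18, edgeR adjusted p = 0.00504).

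Eif5a2 was again among the clearest, with 38.7, 38.6 and 40.6 CPM at ZT1, 40.8, 43.8 and 47.2 at ZT5, 42.1, 39.2 and 44.6 at ZT9, 34, 36.3 and 33.3 at ZT13, 27, 25.6 and 25.5 at ZT17, 35, 32.3 and 33.4 at ZT21. All 3 ZT17 libraries lay below every other library, and the difference was 0.65 ± 0.10 at ZT5.5 (n = 18, edgeR adjusted p = 0.000252). A peak 955 bp inside Eif4ebp1 had 115, 119 and 112 CPM at ZT1, 116, 134 and 123 at ZT5, 143, 101 and 112 at ZT9, 95.6, 101 and 98.6 at ZT13, 104, 90.6 and 94.6 at ZT17, 113, 105 and 90.3 at ZT21. The fit peaked at ZT4.7 with a difference of 0.38 ± 0.08 (n = 18, edgeR adjusted p = 0.00859), and the library at ZT9 replicate 1 was the highest.

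Eif4e3, an atypical cap-binding protein, had 55, 56.2 and 60.1 CPM at ZT1, 67.6, 57.7 and 59.5 at ZT5, 68, 67 and 58.9 at ZT9, 70.3, 60.4 and 76 at ZT13, 50, 51.8 and 55.9 at ZT17, 51, 51.6 and 59.4 at ZT21. Its fitted peak was at ZT9.4, 0.36 ± 0.09 above the trough (n = 18, edgeR adjusted p = 0.019). Eif3f, a subunit of eIF3, ran the other way with 66, 72.1 and 67.5 CPM at ZT1, 65.1, 70.3 and 65.9 at ZT5, 50.9, 57.2 and 62.2 at ZT9, 58.8, 66.3 and 62.3 at ZT13, 63.5, 69.5 and 62 at ZT17, 77.7, 74.6 and 69.9 at ZT21. Its peak was at ZT22.3 and the ZT21 libraries included the 2 highest (0.30 ± 0.07, n = 18, edgeR adjusted p = 0.0183).

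Of the 64 WAT promoter peaks, 35 overlapped a BMAL1 peak by at least 1 base (54.7%, beside 45.0% of all promoter peaks), and 5 of these 35 were called. Of the 29 without a BMAL1 peak, 1 was called. Over all WAT promoter peaks the shares called were 5.18% with and 7.26% without a BMAL1 peak, and ATAC and ChIP came from different mice. The plot of peak times gives all the promoters of both depots.

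**Figure D1:**
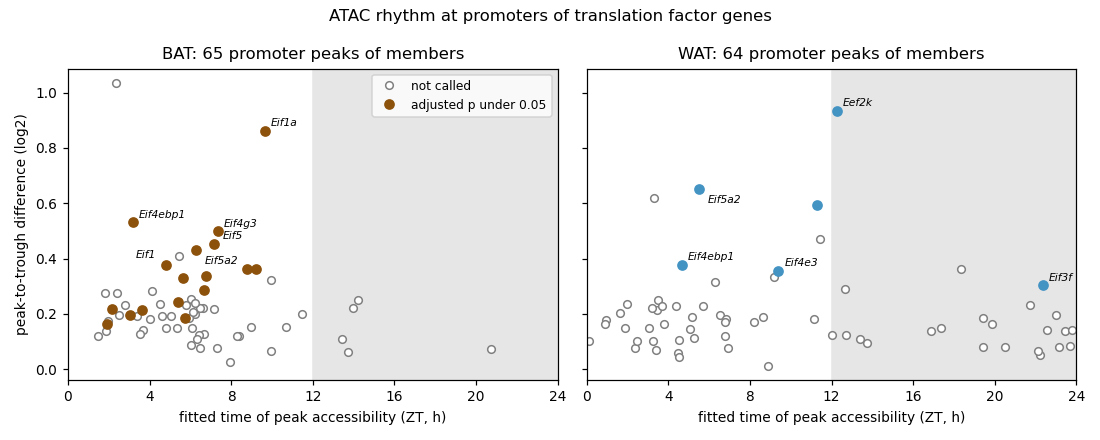
Fitted time of peak accessibility (x axis, Zeitgeber time in hours, dark phase shaded) against the log2 difference between peak and trough (y axis) for 65 promoter ATAC peaks of translation factor genes in BAT and 64 in WAT. Filled points passed an adjusted p of 0.05: all 17 in BAT lie in the light phase, and in WAT 4 of 6 do; the 6 called genes of largest difference in BAT and the called genes in WAT are named, each once.

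By RNA level per length, taken from the authors' TPM, a few factors dominated. In BAT the highest were Eif1 at 3023 ± 710.3 TPM (SD, n = 17 libraries), Eef1a1, the main tRNA-delivering elongation factor, at 873 ± 303, Eef1b2, its exchange factor, at 549.7 ± 93.6, and the helicases Eif4a2 at 433 ± 115 and Eif4a1 at 312 ± 49.5. In WAT they were Eef1a1 at 1677 ± 1024 (n = 18), Eif1 at 1083 ± 625, Eif5 at 562 ± 190.4, Eif5b at 546 ± 223 and Eef1b2 at 518 ± 151. Each pair of neighbours in this WAT order differed by less than the larger of their SDs. The cap-binding protein Eif4e stood far lower, at 8.50 ± 1.83 TPM in BAT and 11.9 ± 9.09 in WAT, and the 4E-BP gene Eif4ebp1 at 123 ± 71.4 and 64.3 ± 24.3. TPM of the 2 depots were computed separately and were not compared.

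Most members differed between depots, and so did most genes. In the eIF4 group (Eif4a, Eif4b, Eif4e, Eif4g and Eif4h genes), 7 of 11 genes tested were higher in BAT. The eIF3 genes split between the depots. The difference was tested in all 35 RNA libraries with time as a factor (edgeR quasi-likelihood test), and 52 of the 65 members tested were called, 36 higher and 16 lower in BAT. The background was as high: 76.3% of 14969 genes were called, 35.5% higher and 40.8% lower in BAT. At a size of at least 2-fold, 25 members (19 higher, 6 lower) remained, beside 56.3% of genes (23.3% higher, 33% lower). The median log2 difference was 0.48 over members and -0.12 over all genes. Eef1akmt3 and Eif4e1b had too few counts to test. With DESeq2 size factors the median over all genes was -0.44, a shift of all values toward WAT, and the members split into 30 higher and 23 lower. In these libraries of ribosome-bound RNA, more cells of a type, more RNA per cell and more ribosomes on each RNA cannot be told apart. This holds between depots and over the day. WAT also carried more RNA of B and T cells (above) and of macrophages (19.3 to 157 CPM, against 7.77 to 12.7 in BAT). The same held for markers of fibroblasts (147 to 643 against 11.2 to 58.5) and endothelium (3.21 to 77.3 against 2.32 to 31.4, with overlap). RNA encoded in mitochondria summed to 7615 to 250096 CPM in WAT and 1133 to 22967 in BAT. The part of these cells and of mitochondrial RNA in the depot differences was not tested.

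Of the 11 genes of the eIF4 group, which is wider than the cap complex itself, 7 were higher in BAT and 2 lower. It also holds Eif4a3, Eif4e2 and Eif4g2. Eif4a2 ranged from 544 to 1288 CPM in BAT (median 979) and from 196 to 522 in WAT (median 259). No library of one depot overlapped the other, and the log2 difference was 1.76 ± 0.13 (SE, n = 35 libraries, edgeR adjusted p = 6.75e-15). Eif4h, which stimulates the helicase, had 324 to 387 CPM in BAT (median 359) and 89.5 to 173 in WAT (median 128), again without overlap (1.46 ± 0.10, adjusted p = 1.30e-16). Eif4g1 had 149 to 236 CPM in BAT (median 199.9) and 56.2 to 137 in WAT (median 79.4), a difference of 1.25 ± 0.11 without overlap. Eif4a1 had 193 to 282 in BAT (median 228) and 87.0 to 128 in WAT (median 105), a difference of 1.18 ± 0.09 without overlap. Eif4e was closer, with 22.1 to 35.9 CPM in BAT (median 29.6) and 10.9 to 25.4 in WAT (median 19.2), and its ranges overlapped (0.61 ± 0.10, adjusted p = 1.50e-06). Eif4b, the helicase cofactor, did not pass (-0.03 ± 0.10, adjusted p = 0.822), while Eif4g3 (-0.84 ± 0.12) and Eif4e3 (-0.43 ± 0.19) were lower in BAT.

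Among the start codon factors, Eif1 was 830.1 to 2426 CPM in BAT (median 1585) and 221 to 797 in WAT (median 366). The depots did not overlap, and the difference was 1.95 ± 0.18 (adjusted p = 1.64e-12). Eif1ax (1.16 ± 0.20), Eif1ad (0.89 ± 0.15), Eif1b (0.75 ± 0.20) and Eif1a (0.26 ± 0.12) were also higher in BAT. Eif1ad is counted with this group, though a role in start codon choice is not established for it. Eif5b, the GTPase that joins the ribosomal subunits, was the member most strongly reduced in BAT, at 275 to 1136 CPM (median 548) against 929.8 to 9435 in WAT (median 3297). In WAT, 1 library lay inside the BAT range, and the difference was -2.42 ± 0.24 (adjusted p = 1.12e-11). Eif5 did not pass (-0.18 ± 0.17, adjusted p = 0.336).

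The 14 eIF3 genes divided, with 6 higher and 7 lower in BAT. Eif3l was 147 to 261 CPM in BAT (median 199.9) and 32.3 to 67.8 in WAT (median 47.0), without overlap (1.97 ± 0.11, adjusted p = 1.06e-18). Eif3a, the largest core subunit, was the reverse, at 86.5 to 379 CPM in BAT (median 179.8) and 448 to 2042 in WAT (median 721), and it was the 1 member with every WAT library above every BAT library (-2.14 ± 0.21, adjusted p = 8.40e-12). Eif3c, which joins Eif3a in the core, was 63.3 to 191 CPM in BAT (median 96.8) and 118 to 860.2 in WAT (median 347), with some overlap (-1.76 ± 0.19, adjusted p = 7.83e-11). The remaining subunits lay between Eif3i (1.27 ± 0.14) and Eif3j2 (-1.37 ± 0.24). Reads of the near-identical Eif3j1 and Eif3j2 may be split between them by the counting, so their values are uncertain.

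For eIF2 and its control, all 5 genes grouped with the ternary complex were called, 3 higher and 2 lower in BAT. The group holds the eIF2 subunit genes Eif2s1, Eif2s2 and Eif2s3x, and Eif2a and Eif2d, whose products are not eIF2 subunits. Of the subunit genes, Eif2s1 and Eif2s2 were lower and Eif2s3x was higher. Eif2s1, the subunit that the stress kinases phosphorylate, was 2.36 to 17 CPM in BAT (median 7.23) and 4.06 to 22.4 in WAT (median 14.0), with broad overlap (-0.68 ± 0.24, adjusted p = 0.0102). Eif2s3x was higher in BAT (1.08 ± 0.11), but reads of its Y-linked copy may be counted with it. Of the kinases, Eif2ak1, the heme-regulated one, was higher (1.39 ± 0.13), and Eif2ak4, the amino acid sensor GCN2, was lower in BAT, at 2.44 to 7.13 CPM (median 4.55) against 3.70 to 23.2 (median 9.58), with a difference of -1.14 ± 0.19 (adjusted p = 8.73e-07). Eif2ak3, which encodes PERK of the endoplasmic reticulum stress response, did not pass (0.13 ± 0.26, adjusted p = 0.657). Eif2b5, the catalytic subunit of eIF2B, was 50.6 to 84.1 CPM in BAT (median 67.3) and 22.3 to 103 in WAT (median 38.0), a difference of 0.68 ± 0.16 (adjusted p = 0.000243).

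Elongation factors did not move as one. Eef2 was lower in BAT, at 343 to 718 CPM (median 456) against 373 to 1461 in WAT (median 901), with overlap (-0.86 ± 0.15, adjusted p = 1.89e-06), and its kinase Eef2k did not pass (-0.25 ± 0.17, adjusted p = 0.176). Eef1a1 (-0.35 ± 0.18, adjusted p = 0.0725) and Eef1g (0.21 ± 0.14, adjusted p = 0.174) did not pass either. Eef1b2 was 309 to 607 CPM in BAT (median 399) and 199 to 611 in WAT (median 266), a difference of 0.48 ± 0.13 (adjusted p = 0.000861) that did not pass with DESeq2 size factors (0.16, adjusted p = 0.185). Eef1e1, a scaffold of the aminoacyl-tRNA synthetase complex, was 23.6 to 33.4 CPM in BAT (median 27.7) and 3.48 to 27.9 in WAT (median 9.33), with 1 WAT library inside the BAT range (1.48 ± 0.15, adjusted p = 2.48e-11).

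Eef1a2, the elongation factor of muscle and neurons, was rare, at 0.434 to 18.2 CPM in BAT (median 2.36) and 0 to 3.48 in WAT (median 0.588). The difference was 1.97 ± 0.50 (adjusted p = 0.000524) with overlapping ranges. Its highest value, 18.2 CPM at ZT13 replicate 3, came from the BAT library with the highest sum of 7 skeletal muscle markers (721 CPM, range in BAT 25.7 to 721), and the part of muscle RNA in the difference was not tested. Of the enzymes that modify elongation factors, the lysine methyltransferases Eef1akmt1 (6.18 to 21 CPM in BAT, median 13.2, and 1.13 to 9.83 in WAT, median 3.07) and Eef1akmt2 (13.8 to 24.4, median 20, and 2.24 to 12.2, median 7.43) were higher in BAT by 1.85 ± 0.19 and 1.44 ± 0.16. Eef1akmt2 did not overlap between depots.

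The 4E-BP gene Eif4ebp1 was 58.9 to 228 CPM in BAT (median 119) and 40.8 to 149 in WAT (median 77.4), with a difference of 0.75 ± 0.19 (adjusted p = 0.000586), and Eif4ebp2 did not pass (-0.15 ± 0.15, adjusted p = 0.383). Eif6, which keeps the large subunit free, was 27.6 to 54.6 CPM in BAT (median 42.2) and 13.3 to 34.5 in WAT (median 25.1), a difference of 0.75 ± 0.11. Eif5a was 133 to 286 CPM in BAT (median 189) and 97.6 to 188 in WAT (median 154), a difference of 0.42 ± 0.10 (adjusted p = 0.000449) that was 0.11 with DESeq2 size factors (adjusted p = 0.373). Its paralog Eif5a2 was barely expressed, at 0.182 to 0.977 CPM in BAT (median 0.589) and 0 to 9.85 in WAT (median 2.03), a difference of -1.61 ± 0.43. The plot of depot differences by role shows the spread within each group.

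**Figure D2:**
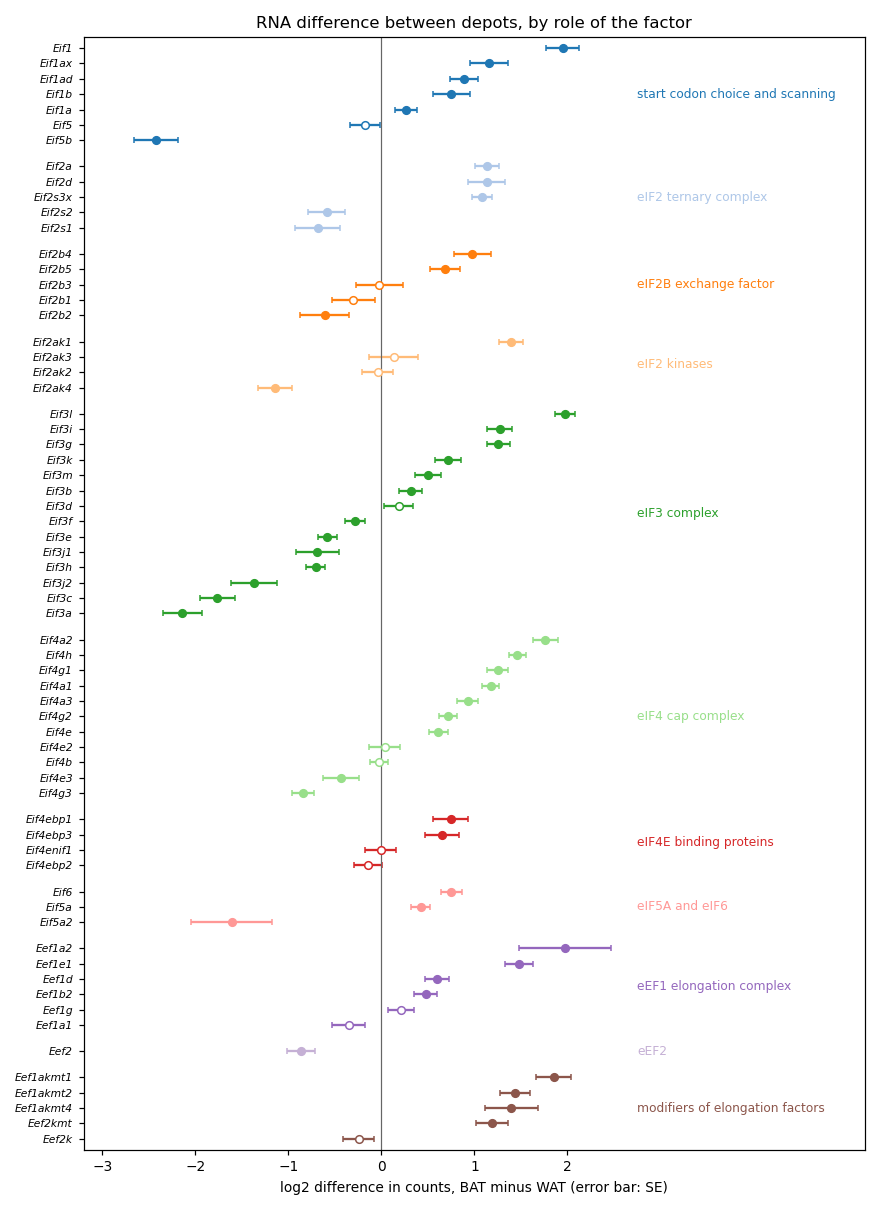
Log2 difference in RNA counts, BAT minus WAT (x axis), with its standard error, for the 65 members tested, grouped by role. Filled points passed an adjusted p of 0.05, and the eIF3 genes run from Eif3l at 1.97 to Eif3a at -2.14. Most genes of the group labelled eIF4 cap complex lie to the right of 0. That group is wider than the complex itself, and the group labelled eIF2 ternary complex includes Eif2a and Eif2d.

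Outside the members, 31 of 44 translation control genes (70.5%, beside 76.3% of all genes) were called between depots, 18 higher and 13 lower in BAT, with a median of 0.12. Among those of at least 2-fold were Rheb, the activator of mTORC1 (1.44 ± 0.17), and Dohh, which completes the hypusine of eIF5A (2.4 ± 0.14), both higher, and Mknk1, a kinase of eIF4E (-1.91 ± 0.27), and Gcn1, the partner of GCN2 (-1.45 ± 0.16), both lower in BAT (edgeR adjusted p from 7.94e-18 to 5.49e-08). Of 83 cytosolic ribosomal protein genes tested, 51 (61.4%) were called, with a median of 0.19, so both lists had a smaller share called than all genes.

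Over the day, few members passed the test in BAT RNA. The 24 h fit called 4 of 65 members (6.15%), beside 9.17% of 12394 genes (5.05% with a light-phase and 4.11% with a dark-phase peak), and all 4 peaked around lights on. By unadjusted edgeR p, 25 of the 65 members were below 0.05, beside 32.5% of genes, so members that did not pass may still change. Eif2b1, the regulatory subunit of eIF2B, had 7.45, 13.9 and 9.74 CPM at ZT1, 10.5, 8.33 and 4.46 at ZT5, 5.3, 3.67 and 1.82 at ZT9, 4.05, 4.99 and 4.22 at ZT13, 5.47 and 5.97 at ZT17, 8.03, 3.65 and 9.4 at ZT21. Mean levels were highest at ZT1 and lowest at ZT9 and ZT13, with a peak-to-trough difference of 1.29 ± 0.31 (SE, n = 17 libraries, edgeR adjusted p = 0.0373). Eif4e2, a cap-binding protein that represses translation, had 25.1, 34.4 and 28.8 CPM at ZT1, 29.7, 30 and 16 at ZT5, 18.7, 9.29 and 11.3 at ZT9, 17, 17.5 and 10.3 at ZT13, 21.3 and 22 at ZT17, 24.3, 15.3 and 30.2 at ZT21, a difference of 1.05 ± 0.26 (n = 17, edgeR adjusted p = 0.0391).

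Eif4ebp2, the other main 4E-BP, had 64, 89 and 77.7 CPM at ZT1, 108, 125 and 68.9 at ZT5, 44.3, 39.1 and 33.5 at ZT9, 47.7, 53.4 and 43.2 at ZT13, 61.7 and 56.5 at ZT17, 75.6, 49.5 and 67 at ZT21. All libraries of ZT1 and ZT5 exceeded all of ZT9 and ZT13, and the fit peaked at ZT1.6 with a difference of 0.98 ± 0.25 (n = 17, edgeR adjusted p = 0.0436). Eif4g3 had 12.9, 10.4 and 13.8 CPM at ZT1, 11.2, 11.8 and 10.7 at ZT5, 10, 9.07 and 11.1 at ZT9, 7.23, 8.52 and 8.93 at ZT13, 11.2 and 10.3 at ZT17, 11.6, 12 and 14.2 at ZT21. It was lowest at ZT13 and its difference was 0.54 ± 0.13 (n = 17, edgeR adjusted p = 0.0373). The authors' deposited table of JTK_CYCLE results, a rank test for rhythm, listed Eif4g3 alone among 65 members with a q below 0.05 (0.0203), beside 4.33% of its 14055 genes.

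Other RNA differed across the same BAT libraries. Summed adipocyte markers were 29980 to 36234 CPM at ZT1, where these members were high, and 50280 to 69293 at ZT9 and 42309 to 54686 at ZT13, where they were low. Summed ribosomal RNA loci were 6444 to 11506 CPM at ZT1, 14758 to 44219 at ZT9 and 18940 to 43573 at ZT13. With these loci and the mitochondrial genes left out before scaling, the same 4 members were called. With the summed adipocyte markers of each library as a covariate, chosen after seeing the data, 0 members passed, beside 4.04% of genes.

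The BAT calls also changed with single libraries. Leaving out any 1 of ZT1 replicate 3, ZT9 replicate 2, ZT13 replicates 1 or 3, ZT17 replicate 2 or ZT21 replicates 1 or 3 left 0 calls, leaving out ZT1 replicate 2 left 1 and ZT9 replicate 3 left 2. Without ZT21 replicate 2, 26 members were called. DESeq2 called 13 members. The contrast of dark (ZT13, ZT17, ZT21) minus light (ZT1, ZT5, ZT9) called 0 of 65 members in BAT with edgeR, beside 1.3% of genes (0.855% higher, 0.444% lower). By unadjusted p, 11 were below 0.05, and DESeq2 called 5. Among ribosomal protein genes, 20 of 83 were called, all higher in the dark.

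In WAT RNA the pattern was broader and pointed to the dark phase. The 24 h fit called 17 of 63 members (27.0%), beside 9.90% of 12703 genes. Of the 17, 15 peaked between ZT17.7 and ZT20.0 and 2 in the light phase; over all genes, 7.04% were called with a dark-phase and 2.86% with a light-phase peak. Called members included 4 of 7 genes of the start codon group, among them Eif1ad, and 2 of 5 eIF2B genes. They also included 5 of 14 eIF3 genes, among them the near-identical Eif3j1 and Eif3j2, which may share reads. The authors' deposited JTK_CYCLE table listed 0 of 64 members below a q of 0.05 in WAT and 17 of all 12541 genes (0.136%).

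The same libraries also differed in adipocyte marker RNA. The markers may themselves change over the day, so their sum is not a measure of adipocyte share alone. The 24 h fit called 3 of the 6 in BAT and 0 of 6 in WAT, where 4 had an unadjusted edgeR p below 0.05. Summed adipocyte markers in WAT were 32798 to 76016 CPM at ZT17 and ZT21 and 7811 to 52762 at the other times, and summed B and T cell markers were 21.7 to 60.5 CPM at ZT17 and ZT21 and 26.8 to 193 at the others. RNA encoded in mitochondria summed to 7615 to 154171 CPM at ZT17 and ZT21 and 57349 to 250096 at the others. With log2 of the summed adipocyte markers as a covariate, chosen after seeing the data, 0 of 63 members and 0.520% of all genes passed. Time and marker level moved together, so they cannot be told apart in these libraries. Within each of the 6 times, the order of the 3 libraries by adipocyte markers was also their order by Eif1b, and the reverse of their order by Eef1a1 except between ZT21 replicates 1 and 3. Eif3a departed from the marker order at ZT1, ZT5 and ZT21. Every WAT time-of-day value below carries the limit that time and marker level cannot be told apart.

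Among start codon factors in WAT, Eif1b had 94.7, 116 and 57.3 CPM at ZT1, 51.6, 32.4 and 64.5 at ZT5, 58.7, 29.1 and 127 at ZT9, 55.7, 44.1 and 70.1 at ZT13, 162, 88.3 and 201 at ZT17, 233, 123 and 240.1 at ZT21. The ZT21 libraries and 2 of the 3 at ZT17 were high, and the difference was 1.74 ± 0.35 at ZT19.9 (n = 18 libraries, edgeR adjusted p = 0.0101). In the light phase, ZT9 replicate 3 (127 CPM) exceeded ZT21 replicate 2 (123), and ZT1 replicate 2 (116) came close to the latter. Eif1ax, the X-linked eIF1A, had 73.4, 107 and 61.3 CPM at ZT1, 35.9, 49.9 and 77.4 at ZT5, 57.3, 32.9 and 134 at ZT9, 50.8, 30.1 and 77.2 at ZT13, 207, 90.8 and 210.4 at ZT17, 207, 144 and 215 at ZT21. Its difference was 1.67 ± 0.37 at ZT19.6 (n = 18, edgeR adjusted p = 0.0153), with the same libraries high. Eif1ad had 24.3, 23.4 and 20.6 CPM at ZT1, 10, 23.6 and 19 at ZT5, 25.4, 17.4 and 33.6 at ZT9, 27.1, 16.9 and 31.8 at ZT13, 65, 29.7 and 56.9 at ZT17, 49.5, 45.6 and 69.4 at ZT21, a difference of 1.46 ± 0.30 (n = 18, edgeR adjusted p = 0.0117). Eif1 itself differed by 1.34 ± 0.32 at ZT20.0.

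Of the eIF3 genes, Eif3a had 738, 562 and 448 CPM at ZT1, 569, 584 and 647 at ZT5, 704, 448 and 1079.9 at ZT9, 636, 465 and 913 at ZT13, 1497, 912 and 2042 at ZT17, 1901, 1294 and 1749 at ZT21. Its mean was highest at ZT17 and ZT21, ZT9 replicate 3 exceeded ZT17 replicate 2, and the difference was 1.35 ± 0.34 at ZT18.6 (n = 18, edgeR adjusted p = 0.0303). Eif3j2 had 431, 328 and 225 CPM at ZT1, 369, 359 and 519 at ZT5, 487, 314 and 1213 at ZT9, 326, 303 and 765 at ZT13, 1435, 909 and 1990.0 at ZT17, 1647, 1019.6 and 1537 at ZT21, and Eif3j1, its near-identical copy, had 269, 284 and 176 CPM at ZT1, 294, 243 and 284 at ZT5, 286, 209 and 782 at ZT9, 202, 171 and 467 at ZT13, 933, 557 and 1252 at ZT17, 984, 675 and 1125 at ZT21. Their differences were 1.69 ± 0.43 and 1.63 ± 0.41 (n = 18, edgeR adjusted p = 0.0363 and 0.0341). Eif3d (1.3 ± 0.29) and Eif3k (1.23 ± 0.25) peaked at ZT18.9 and ZT19.7.

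For eIF2B, Eif2b3 had the largest difference among the called members. Its libraries held 34.1, 52.2 and 23.1 CPM at ZT1, 17.7, 13.2 and 19.7 at ZT5, 22.9, 10.2 and 77.6 at ZT9, 11.1, 11.3 and 37.7 at ZT13, 93.6, 65.6 and 118 at ZT17, 113, 48.8 and 75.3 at ZT21, and the difference was 1.95 ± 0.47 at ZT18.9 (n = 18, edgeR adjusted p = 0.0259). ZT9 replicate 3 reached the level of ZT17. Eif2b5 had 41.2, 48 and 34.8 CPM at ZT1, 23.9, 31.1 and 25.8 at ZT5, 34.4, 26.1 and 62 at ZT9, 22.3, 22.7 and 29.6 at ZT13, 84.8, 47.6 and 88 at ZT17, 103, 41.6 and 84.4 at ZT21, a difference of 1.27 ± 0.32 (n = 18, edgeR adjusted p = 0.0306). Eif2ak2, the kinase PKR activated by double-stranded RNA, differed by 1.48 ± 0.32 at ZT19.8.

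In elongation, Eef1e1 had 8.22, 13.8 and 10.4 CPM at ZT1, 6.19, 5.9 and 4.3 at ZT5, 6.2, 7.84 and 3.48 at ZT9, 14.6, 7.71 and 6.76 at ZT13, 17, 16.3 and 27.9 at ZT17, 14.9, 16.1 and 13.3 at ZT21. Its ZT17 libraries exceeded every other library, and the difference was 1.73 ± 0.37 at ZT18.9 (n = 18, edgeR adjusted p = 0.0128). Unlike Eif3a and Eif1b, it was at its lowest in ZT9 replicate 3. Eef1b2 had 243, 246 and 235 CPM at ZT1, 283, 266 and 248 at ZT5, 208, 199 and 203 at ZT9, 265, 267 and 202 at ZT13, 552, 351 and 522 at ZT17, 529, 287 and 611 at ZT21, with every ZT17 and ZT21 library above all others (1.10 ± 0.27, n = 18, edgeR adjusted p = 0.0294). Eef1a1 (1.41 ± 0.45 at ZT7.4, adjusted p = 0.0956), Eef2 (1.23 ± 0.39 at ZT7.6, adjusted p = 0.0946) and Eef1g (1.06 ± 0.30 at ZT7.2, adjusted p = 0.0595) did not pass. Eef1a1 gave 1042 to 2008 CPM in the ZT17 and ZT21 libraries and 1515 to 4121 in the others.

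The eIF4 group had 1 called member in each phase of the day. Eif4e3 had 289.8, 308 and 193 CPM at ZT1, 183, 205 and 227 at ZT5, 316, 233 and 685 at ZT9, 156, 197 and 431 at ZT13, 830.5, 534 and 1011 at ZT17, 835, 549 and 981 at ZT21, with a difference of 1.61 ± 0.39 at ZT18.0 (n = 18, edgeR adjusted p = 0.0282), while the ATAC peak at its start was most open at ZT9.4. Eif4b had 176, 148 and 196 CPM at ZT1, 233, 217 and 224 at ZT5, 187, 224 and 207 at ZT9, 206, 258 and 193 at ZT13, 139, 122 and 161 at ZT17, 111, 145 and 114 at ZT21, had its lowest means at ZT17 and ZT21, and differed by 0.94 ± 0.25 with a peak at ZT8.0 (n = 18, edgeR adjusted p = 0.0439). Eif4ebp1 had 50.8, 46 and 51.2 CPM at ZT1, 65.7, 58.3 and 103 at ZT5, 78.6, 107 and 96.7 at ZT9, 87.7, 87.2 and 149 at ZT13, 81.3, 99.2 and 56.2 at ZT17, 76.1, 71.8 and 40.8 at ZT21. Its mean was lowest at ZT1 and highest at ZT13, with a difference of 1.04 ± 0.26 at ZT11.6 (n = 18, edgeR adjusted p = 0.0352). Eif4e (0.32 ± 0.26, edgeR adjusted p = 0.677), Eif4a1 (0.10 ± 0.22, adjusted p = 0.951) and Eif4g1 (0.56 ± 0.25, adjusted p = 0.278) did not pass. Neither did Eef2k (0.55 ± 0.41, adjusted p = 0.627), whose promoter accessibility did. On simulated counts this WAT test recovered 3.09% of genes with a log2 difference of 1, so changes of that size could be missed here.

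**Figure D3:**
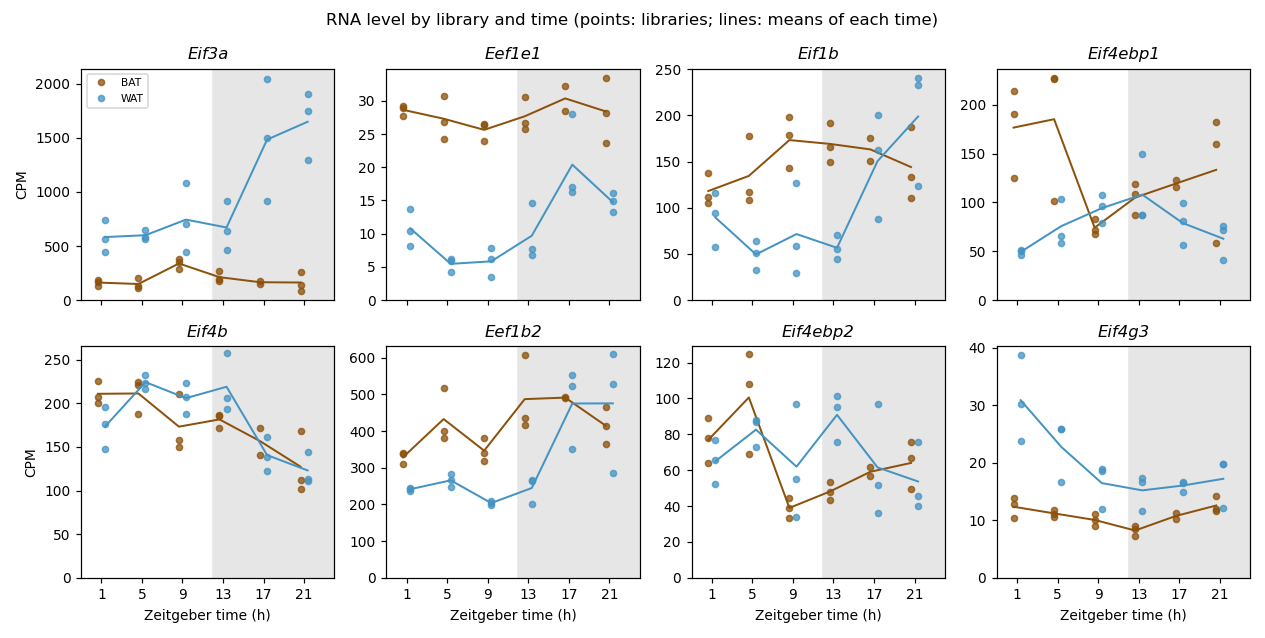
RNA level in CPM (y axis) by Zeitgeber time (x axis, dark phase shaded) for 8 members in BAT and WAT, with points for libraries and lines joining the mean of each time. In WAT, Eif3a, Eif1b and Eef1b2 are high at ZT17 and ZT21 while Eif4b is low there, and in BAT Eif4ebp2 falls from ZT5 to ZT9.

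**Figure D4:**
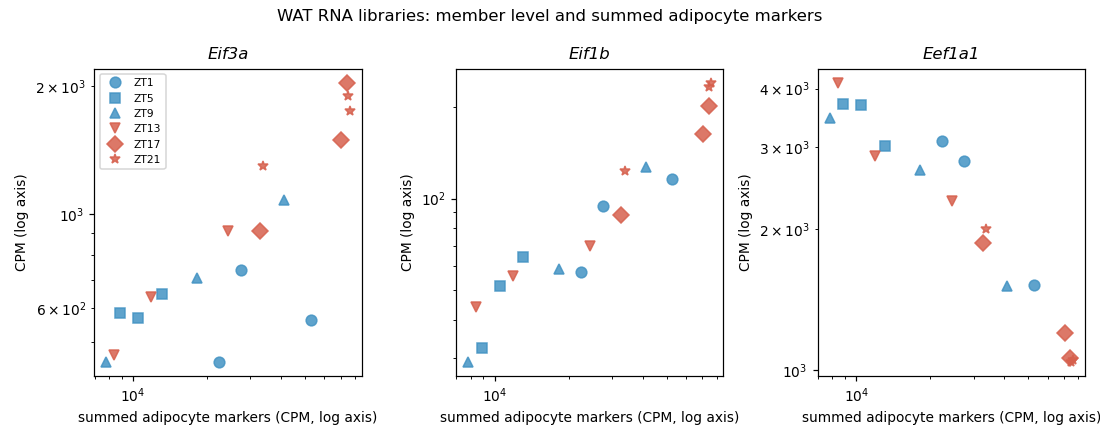
Level of Eif3a, Eif1b and Eef1a1 (y axis, CPM, log axis) against the summed CPM of 6 adipocyte markers (x axis, log axis) in the 18 WAT libraries, 1 symbol for each time, blue for light and red for dark. Within each time, libraries with more adipocyte marker RNA had more Eif1b, and they had less Eef1a1 except between ZT21 replicates 1 and 3. Eif3a followed the marker order at ZT9, ZT13 and ZT17 but not at ZT1, ZT5 and ZT21.

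WAT counts moved with single libraries too. Without ZT9 replicate 3, one of the libraries rich in ribosomal RNA, 27 members were called, and without all 3 such libraries 30 of 65 were, beside 19.7% of genes. Leaving out ZT9 replicate 2, ZT17 replicates 1 or 3 or ZT21 replicate 1 left 5, ZT21 replicate 3 left 6, ZT5 replicate 2 left 7, ZT5 replicate 1 or ZT9 replicate 1 left 8, ZT1 replicate 2 left 10, and ZT1 replicate 1 or ZT13 replicate 3 left 11. Eif1b, Eef1e1 and Eif1ad were called in each of the 18 fits that left out 1 library.

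The contrast of dark minus light in WAT called 12 of 63 members (19.0%), all higher in the dark, beside 7.5% of genes (4.34% higher and 3.16% lower). Eif3j2 (1.07 ± 0.25) was followed by Eif5b, which had 1724, 1188 and 929.8 CPM at ZT1, 3145, 2469.7 and 3448 at ZT5, 2077, 1915 and 5345 at ZT9, 2761, 1657 and 4632 at ZT13, 5954, 3723 and 9435 at ZT17, 7395, 5202 and 5688 at ZT21. Every Eif5b value at ZT17 and ZT21 exceeded all light-phase values other than that of ZT9 replicate 3, and the contrast was 1.04 ± 0.28 (n = 18, edgeR adjusted p = 0.028). Then came Eif3j1 (0.98 ± 0.25), Eef1e1 (0.92 ± 0.27), Eif4e3 (0.91 ± 0.23), Eif1ad (0.88 ± 0.21) and Eif3a (0.83 ± 0.22), with Eif1b, Eif3d, Eif2ak2, Eef1b2 and Eif3k between 0.61 and 0.77. With the adipocyte covariate 0 passed. Without ZT1 replicate 3, 0 remained; 1 remained without ZT5 replicate 1 or 2, ZT9 replicate 1, ZT13 replicate 3 or ZT17 replicate 1 or 3; 2 without ZT9 replicate 2 or ZT21 replicate 1; 3 without ZT21 replicate 3 and 7 without ZT1 replicate 1; without ZT9 replicate 3, 24 were called.

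Whether a rhythm differed between depots was tested as the interaction of depot with the 24 h curve, and its size is the amplitude of the difference between the curves. This called 14 of 65 members (21.5%), beside 9.04% of 14969 genes. Eif3j1 (1.04 ± 0.28), Eif3a (1.02 ± 0.24), Eif1ax (1.00 ± 0.23), Eif4ebp1 (0.99 ± 0.21), Eif1b (0.98 ± 0.22) and Eif2d, an alternative initiator tRNA carrier (0.92 ± 0.25), had the largest differences (n = 35 libraries, edgeR adjusted p from 0.0113 to 0.042). In BAT, Eif3a had 189.5, 127 and 172 CPM at ZT1, 131, 111 and 205 at ZT5, 286, 352 and 379 at ZT9, 174, 192 and 271 at ZT13, 152 and 179.8 at ZT17, 138, 265 and 86.5 at ZT21. These BAT values were highest at ZT9, while in WAT the gene was highest at ZT17 and ZT21.

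Eif1ax in BAT had 173, 159 and 162 CPM at ZT1, 187, 197 and 233 at ZT5, 189, 229 and 249.6 at ZT9, 195, 204 and 232 at ZT13, 207 and 199 at ZT17, 165, 233 and 137 at ZT21, and Eif1b had 138, 105 and 112 CPM at ZT1, 117, 109 and 178 at ZT5, 143, 179 and 198 at ZT9, 166, 149.6 and 192 at ZT13, 151 and 176 at ZT17, 134, 188 and 111 at ZT21, both with a narrower range than in WAT. Eif3j1 in BAT had 207, 147 and 166 CPM at ZT1, 183, 163 and 307 at ZT5, 284, 445 and 556 at ZT9, 251, 276 and 408 at ZT13, 259 and 240.0 at ZT17, 177, 416 and 109 at ZT21, with its highest mean at ZT9. Eif4ebp1 in BAT had 125, 215 and 190.5 CPM at ZT1, 228, 227 and 101 at ZT5, 83, 71.5 and 68 at ZT9, 119, 109 and 87.3 at ZT13, 123 and 115 at ZT17, 159, 58.9 and 182 at ZT21. Its BAT mean was highest at ZT5 and lowest at ZT9, whereas the WAT mean was lowest at ZT1.

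Eif2d had 15.4, 15.6 and 16.1 CPM at ZT1, 19.4, 14.5 and 13.3 at ZT5, 9.35, 13 and 8.18 at ZT9, 12.5, 12.6 and 10 at ZT13, 14.1 and 12.8 at ZT17, 17, 13 and 16.1 at ZT21 in BAT and 4.78, 4.1 and 6.11 CPM at ZT1, 16.8, 4.31 and 11.1 at ZT5, 5.83, 10.6 and 4.63 at ZT9, 9.05, 8.46 and 7.04 at ZT13, 4.7, 5.04 and 4.18 at ZT17, 0.619, 6.6 and 1.7 at ZT21 in WAT, where the counts were few. The other called members were Eif2ak2, Eif5, Eef1e1, Eif2b5, Eef1g, Eif1ad, Eif3k and Eif3i. With the adipocyte covariate, 1 member passed, none of these 14, beside 0.227% of genes. The count was 7 with time as a factor and 34 without the 3 libraries rich in ribosomal RNA. Leaving out 1 library gave 6 (BAT ZT9 replicate 3, BAT ZT21 replicate 3, WAT ZT21 replicate 3), 8 (BAT ZT9 replicate 2, WAT ZT21 replicate 1), 9 (BAT ZT5 replicate 3, BAT ZT17 replicates 1 or 2, BAT ZT21 replicate 1, WAT ZT9 replicate 2, WAT ZT17 replicate 1), 24 (BAT ZT21 replicate 2) or 28 (WAT ZT9 replicate 3).

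In the translation control list, 4 of 44 genes (9.09%) were called in the WAT 24 h fit, a share near that of all genes (9.90%). All 4 had a dark-phase peak. They were Atf4, the transcription factor of the integrated stress response (1.43 ± 0.29 at ZT20.0), Pabpc4, a poly(A)-binding protein (1.43 ± 0.32), Mcts1, a reinitiation factor (1.52 ± 0.39), and Hbs1l, a ribosome rescue factor (1.48 ± 0.31). In BAT 2 of 44 (4.55%, beside 9.17% of all genes) were called, Larp1, which represses mRNAs of the translation machinery (0.52 ± 0.09 at ZT0.5), and Ddit3, the stress factor CHOP (0.95 ± 0.19 at ZT23.0). Of the ribosomal protein genes tested, 20 of 83 were called in WAT, 18 of them with a dark-phase peak, and 3 of 83 in BAT.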

How the data were processed

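The members, gene lists and several alternatives were chosen with earlier results of these data known. RNA values are expected counts per gene deposited by the authors, who left replicates apart; the submitters' processing notes name the build mm10, limma, DESeq2, HOMER, RSEM 1.3.0 and STAR 2.7.5, with no role given, and also Bowtie2 2.4.1. TPM and JTK_CYCLE q-values are the authors' deposited values. ATAC values are counts of tags in each peak without scaling, per the file headers from HOMER on mm10. BMAL1 peak scores and the signal of each ChIP library, scaled to a fixed total, are in the authors' deposited peak list. Strand use in counting was not stated in these sources. 1 column of per-sample values belonged to no listed sample and was not used.

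Expected counts were rounded to whole numbers, filtered with filterByExpr on the groups, scaled by TMM and tested with edgeR 4.0.16 (R 4.3.3) by glmQLFit and glmQLFTest, with Benjamini-Hochberg adjustment over all genes or peaks and calls at an adjusted p under 0.05. CPM used TMM factors over all 35 RNA libraries, or over the ATAC libraries of a depot. Rhythms were cosine and sine terms of 24 h; standard errors were scaled to the F statistic. The tests were checked on simulated counts in which 200 genes were changed. At a log2 peak-to-trough difference of 1, the 24 h fit recovered 45% of the changed genes in BAT and 3.09% in WAT. At a difference of 2 it recovered 80% in BAT and 49.5% in WAT. A WAT gene that did not pass may therefore still change over the day. DESeq2 1.42.0, other scalings and filters, a replicate block, time as a factor, left-out libraries and an adipocyte covariate were alternatives. No 2 libraries of a group agreed within sampling noise. Named members were 20 chosen by role plus the called members of largest effect, up to 12 in each comparison, with values by library for up to 6. Promoter sequences are from RefSeq.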

Additional observations from a re-analysis of the deposited data

Results flagged for a closer look

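The 24 h curves of BAT and WAT differed in 14 members by a test of the depot interaction (edgeR quasi-likelihood test, Benjamini-Hochberg adjusted p from 0.00965 to 0.042). The amplitude of the difference, in log2, was 1.04 for Eif3j1, 1.02 for Eif3a, 1 for Eif1ax, 0.99 for Eif4ebp1 and 0.98 for Eif1b. It was 0.92 for Eif2d, 0.91 for Eif2ak2, 0.83 for Eif5, 0.83 for Eef1e1 and 0.74 for Eif2b5. It was 0.72 for Eef1g, 0.72 for Eif1ad, 0.66 for Eif3k and 0.65 for Eif3i. None of the 14 passed with the adipocyte covariate.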

How the results depend on the processing

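The count of members called between depots was 48 to 55 under all alternatives, and the promoter ATAC and BMAL1 counts stayed within 1.5 times the reported ones. The rhythm counts did not. In BAT, 13 members were called by DESeq2, 13 with no filter on low counts and 0 with the adipocyte covariate. In WAT, 30 were called without the 3 libraries rich in ribosomal RNA and 0 with the covariate. For the difference between depots, the counts were 7 with time as a factor, 34 without those libraries and 1 with the covariate. For dark minus light in BAT they were 5 by DESeq2, 1 with no filter and 7 with the covariate, and in WAT 22 by DESeq2, 26 without those libraries and 0 with the covariate. The cause of these changes was not tested.

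With the covariate, the fitted phase of Eif2b3 and Eif2b5 in WAT moved by more than 6 h, with differences of 0.276 and 0.0313. That of the depot difference moved likewise for Eif3j1 (0.0548) and Eif2b5 (0.115). Leaving out 1 library at a time gave 50 to 52 members between depots, 0 to 26 for the BAT rhythm, 5 to 27 for the WAT rhythm, 6 to 28 for the rhythm difference, 0 to 1 for dark minus light in BAT (1 without ZT9 replicate 2, ZT21 replicate 1 or ZT21 replicate 3) and 0 to 24 in WAT. It gave 12 to 18 ATAC promoter peaks in BAT and 5 to 8 in WAT.

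The labels do not say whether replicate numbers pair the samples. Deviations of BAT and WAT libraries of the same time and number correlated at -0.212 to 0.143 (median 0.00232), with 1 of 17 pairs above 0.1. For other numbers at the same time the median was -0.00319. Depots of the same animal need not deviate together, so these values cannot exclude pairing. With the replicate block, 51 members were called between depots, 3 in the BAT rhythm, 18 in the WAT rhythm, 13 in the rhythm difference, 0 for dark minus light in BAT and 17 in WAT, and the promoter peaks were 16 in BAT and 6 in WAT. WAT depth, at most 6481154 counts, limits the scarce members such as Eif5a2 and Eif2d.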
